A study of Arabidopsis thaliana with 18 samples.

Results

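Rosettes of Arabidopsis thaliana that had stood for 1 h in a tone of 2000 Hz were compared with rosettes that had stood as long in silence. The comparison rests on 6 Affymetrix ATH1 arrays, 3 for each condition, out of 18 in the series, and was made across 22746 probe sets. All plants were wild-type Col-0, aged 20 days and kept in continuous light at 22 °C. The tone was played at 80 dB inside a soundproof chamber, the silent controls stood in the same chamber, and rosettes were harvested straight after the hour. The other 12 arrays, 3 each at 250, 500, 1000 and 3000 Hz, served to set the spread and to ask which changes also appeared at other frequencies. The labels call the 3 arrays of a group biological replicates. They do not say how many plants went into each, and p-values here measure the spread between these arrays.

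Plants sense sound as small, fast vibrations of their surfaces. Mechanical stimuli such as touch or wind raise a class of short-lived transcripts within minutes, among them genes for calcium-binding calmodulin-like proteins, zinc-finger and WRKY transcription factors and ubiquitin ligases. Chloroplasts keep a genome of their own, which encodes core subunits of the photosystems, the cytochrome b6f complex, the ATP synthase, an NADH dehydrogenase-like (NDH) complex and part of the translation machinery, whereas most chloroplast proteins, including the light-harvesting antenna, come from nuclear genes.

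Several arrays stood apart before any gene was considered. The poly-A spikes, bacterial transcripts added to the RNA before it is labelled, averaged 5.41, 5.50 and 5.46 (log2 signal over 24 probe sets) on control replicates 1, 2 and 3, and 6.51, 6.20 and 6.32 on the arrays at 2000 Hz. Of the 24 spike probe sets, 23 had all 3 arrays at 2000 Hz above all 3 controls. The difference of 0.89 gave p = 0.1 in an exact permutation test (two-sided), the smallest p that 3 arrays against 3 allow. The arrays at 3000 Hz came nearest, at 6.34, 5.99 and 6.23, and all other arrays lay between 5.37 and 5.59. Labelling brightness and the tone therefore cannot be told apart against silence. Control replicate 1 differed at least 2-fold from replicate 2 at 1308 probe sets and from replicate 3 at 944, replicates 2 and 3 differed that much at 731, and the arrays at 2000 Hz did so among themselves at 175 to 412. The leaf gene RCA, which encodes the activase of Rubisco, lay between 14.22 and 14.32 on all 6 arrays, and pollen and floral markers were not analysed here.

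**Figure D1:**
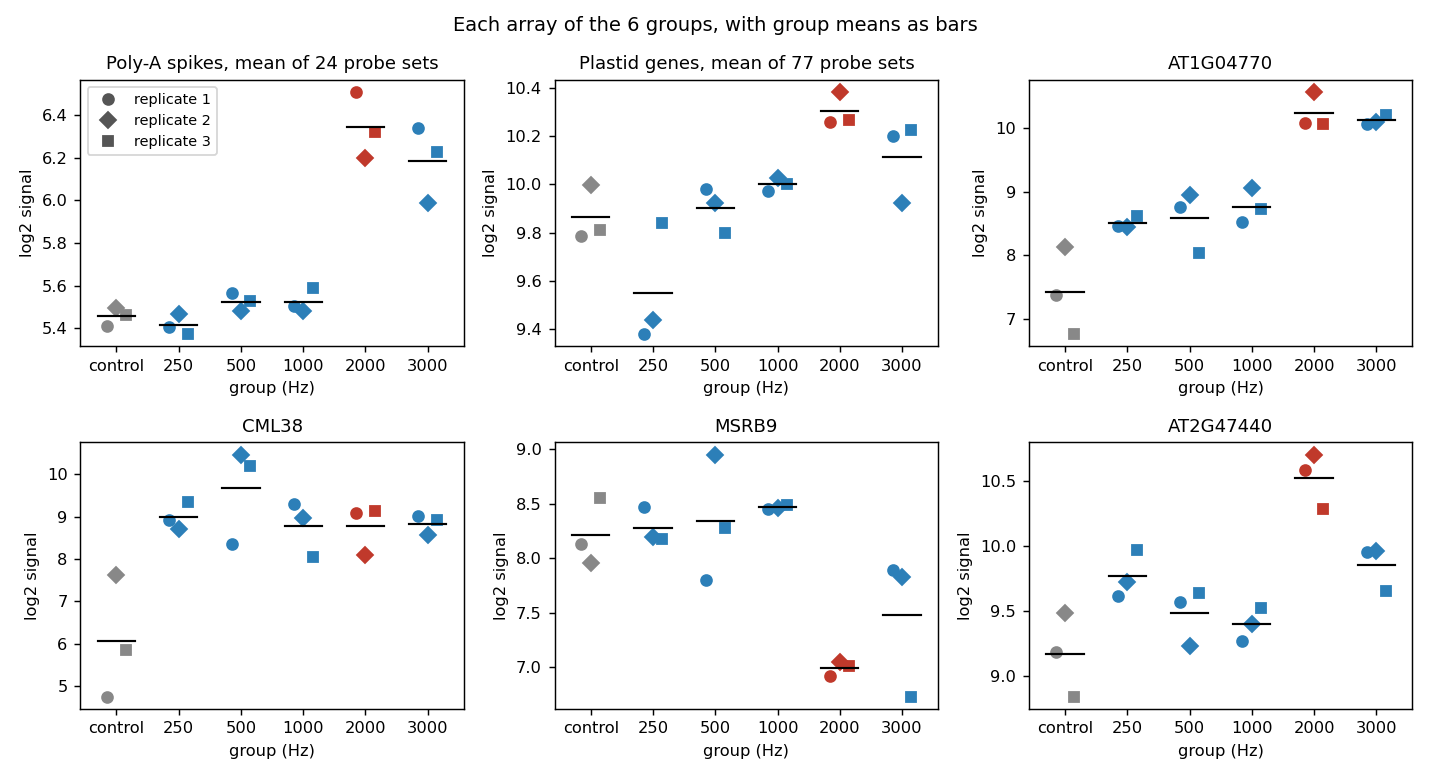
Log2 signal (vertical axis) on each of the 18 arrays by group (horizontal axis, Hz), with group means as bars and a marker shape for each replicate number, for the mean of the poly-A spikes, the mean of the plastid-encoded probe sets and 4 genes. The arrays at 2000 Hz lie above the controls for the spikes, the plastid mean, AT1G04770, CML38 and AT2G47440 and below them for MSRB9, and the spikes are bright at 2000 and 3000 Hz alone.

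After 1 h at 2000 Hz, 369 probe sets were higher and 288 lower than in silence at an adjusted p under 0.05 in limma's test over all 22746 probe sets (1.62% and 1.27% of them). Rises were the larger changes: 120 of the higher probe sets and 35 of the lower changed at least 2-fold. In 347 of the 369 and 282 of the 288, all 3 sound arrays lay beyond all 3 controls. Without regard to the test, 1705 probe sets (7.5%) lay wholly above the controls and 2067 (9.09%) wholly below, and after centring each array on its median the balance turned to 1913 above and 1685 below. The median change over all probe sets was -0.02 on the log2 scale. Of the 369 rises, 220 were also wholly above the controls at 3000 Hz, 135 had the arrays at 2000 Hz above all arrays at 250, 500 and 1000 Hz as well, and 64 above all 15 other arrays. For the 288 falls the same counts were 220, 100 and 39. All frequencies share the 3 control arrays, against which these rises and falls were picked. The share of all probe sets beyond the controls at 3000 Hz was not counted. In whole rosettes, fewer cells of a type and less RNA per cell cannot be told apart.

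These counts depended on single arrays. In 243 of the 369 rises and 200 of the 288 falls, control replicate 2 was the control nearest to the sound arrays. Without it 2576 probe sets passed; without control replicate 1 it was 471, without control replicate 3 it was 104, and without the sound arrays 1, 2 and 3 it was 48, 721 and 111. The fit takes its spread from all 18 arrays. With only the 6 arrays 0 probe sets passed (2586 had an unadjusted p under 0.05), and with the spike mean as a covariate 0 passed (605 unadjusted).

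**Figure D2:**
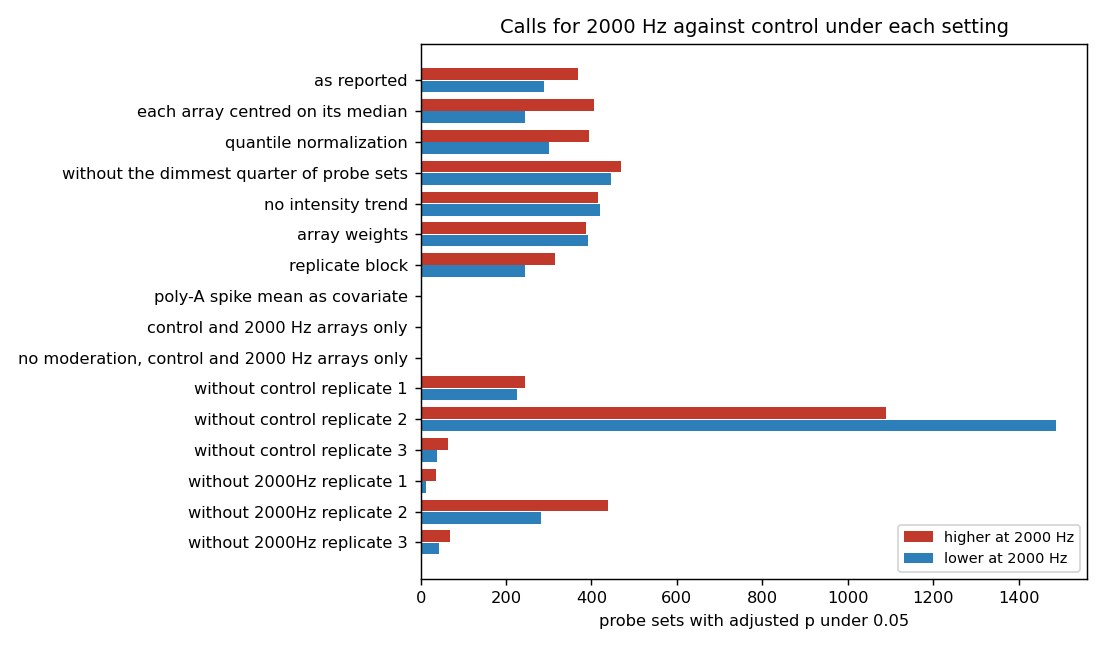
Number of probe sets with an adjusted p under 0.05 (horizontal axis), higher in red and lower in blue, for 2000 Hz against silence under each setting (vertical axis). The count runs from 657 as reported to 2576 without control replicate 2 and to 0 with the spike covariate or with the 6 arrays alone.

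Among probe sets with a single gene, the 14 largest rises spanned several families rather than one pathway. AT2G20670 and AT3G07350 belong to the plant DUF506 family, a domain of unknown function. AT3G62950 encodes a glutaredoxin of the CC type found in land plants, AT1G04770 (SDI2) a protein known to accumulate under sulfur deficiency, and CML38 a calmodulin-like calcium sensor that responds to wounding and low oxygen. AT2G41640 encodes a glycosyltransferase, AT3G62550 a universal stress protein, AT1G33760 a transcription factor of the ERF/DREB family and AT5G03350 a legume-type lectin.

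AT1G04770 had the smallest adjusted p of all probe sets. Its log2 signals were 7.38, 8.13 and 6.76 on control replicates 1 to 3 and 10.08, 10.57 and 10.07 on the sound arrays. The groups were well apart, and the rise of 2.82 ± 0.28 (SE, n = 3; 7.05-fold) had an adjusted p of 0.000678. The arrays at 250, 500 and 1000 Hz read 8.03 to 9.05, below all arrays at 2000 Hz and, apart from 500 Hz replicate 3 at 8.03, above all controls, and those at 3000 Hz reached 10.07 to 10.20. Against the mean of the other 4 frequencies, AT1G04770 was higher at 2000 Hz by 1.25 ± 0.22 (adjusted p = 0.014), and against 3000 Hz alone the difference was 0.12 ± 0.28 (adjusted p = 0.904).

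AT2G20670 changed most in size. It read 5.07, 8.89 and 5.87 in silence and 10.44, 9.51 and 11 at 2000 Hz, a rise of 3.71 ± 0.75 (13.1-fold, adjusted p = 0.0212). Control replicate 2 came within 0.62 of the lowest sound array, whereas the other controls lay far below. Its relative AT3G07350 read 6.14, 7.64 and 6.36 in silence and 9.17, 8.89 and 9.82 at 2000 Hz, and rose by 2.58 ± 0.40 (adjusted p = 0.00879). Neither rise was particular to 2000 Hz. Against the same controls AT2G20670 changed by 3.43, 3.99, 2.12 and 3.23 at 250, 500, 1000 and 3000 Hz. The changes of AT3G07350 there were 1.94, 2.42, 0.91 and 2.27. Both genes passed at 500 and 3000 Hz and did not at 250 and 1000 Hz.

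The glutaredoxin gene AT3G62950 read 4.14, 7.33 and 4.51 in silence and 8.0, 7.90 and 8.67 with sound (rise of 2.86 ± 0.57, adjusted p = 0.0209). CML38 read 4.75, 7.62 and 5.85 in silence and 9.10, 8.10 and 9.14 with sound (2.71 ± 0.61, adjusted p = 0.0308). Both genes had their highest control value on replicate 2, and both were also high on the arrays at 250, 500 and 1000 Hz, at 6.95 to 8.80 for AT3G62950 and 8.04 to 10.47 for CML38. AT4G37240, AT2G41640, AT5G60680, AT3G19680 and AT3G62550 had the same layout, with changes of 2.15 to 2.38 and control replicate 2 closest to the sound arrays. AT1G23030, which encodes the ubiquitin ligase PUB11, rose by 1.59 ± 0.34 (adjusted p = 0.0247), with control replicate 2 at 8.98 and the lowest sound array at 8.99.

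AT1G33760, the ERF/DREB factor, had tight controls at 4.69, 5.04 and 4.82 and read 6.33, 6.41 and 6.96 at 2000 Hz, a rise of 1.72 ± 0.32 (adjusted p = 0.0175). AT1G13650 read 6.80, 6.35 and 5.4 in silence and 9.03, 7.50 and 8.31 with sound (2.10 ± 0.50, adjusted p = 0.0358). The 9 arrays at 250, 500 and 1000 Hz stayed at 5.49 to 7.35, all under the arrays at 2000 Hz, and AT1G13650 was higher at 2000 Hz than at the other 4 frequencies by 1.58 ± 0.39 as a mean (adjusted p = 0.0467). At 3000 Hz AT1G13650 read 8.31, 8.65 and 6.44, and its difference from 2000 Hz was 0.48 (adjusted p = 0.717). The lectin gene AT5G03350 was lowest on control replicate 2 (9.92, 8.94 and 10.62 in silence; 11.22, 11.99 and 11.26 with sound), and its call (adjusted p = 0.0454) was lost whichever of the 6 arrays was left out.

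**Figure D3:**
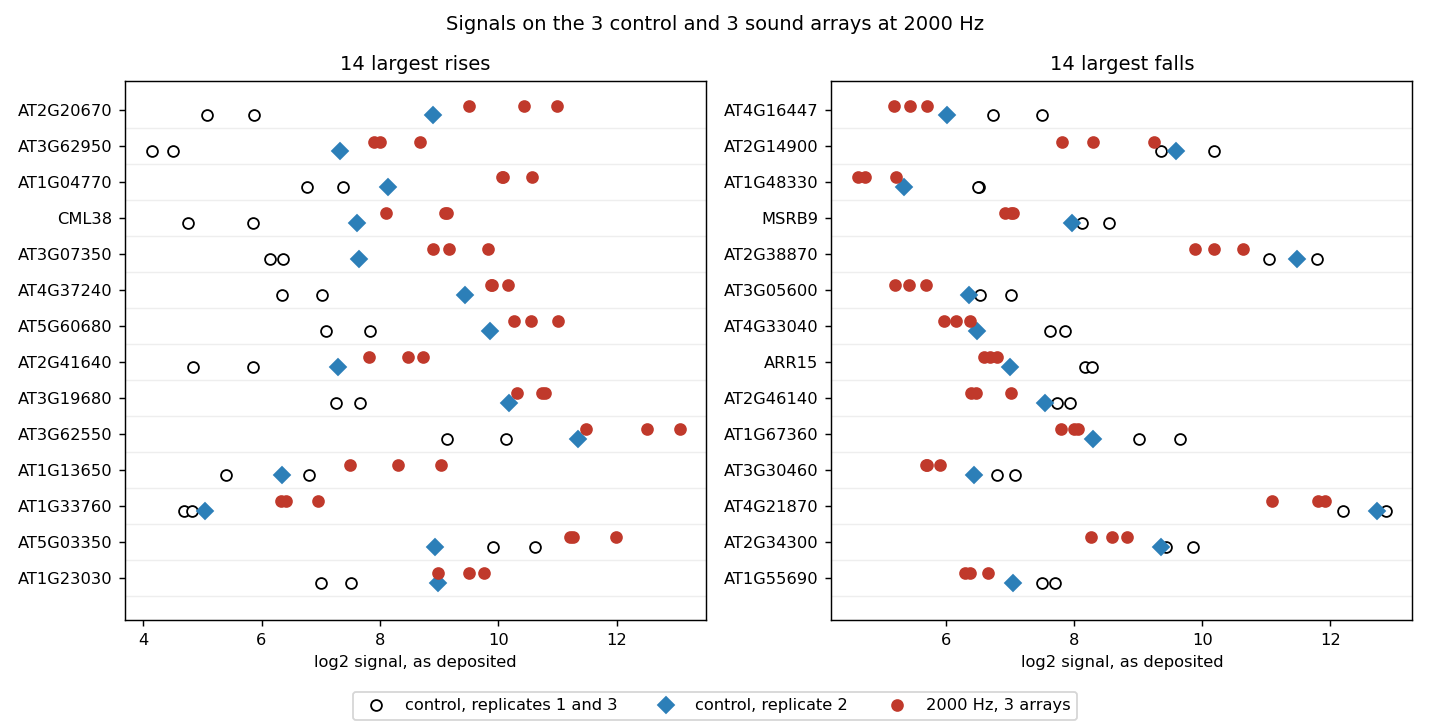
Log2 signal (horizontal axis) of the 14 largest rises and 14 largest falls that passed the test (vertical axis), with open circles for control replicates 1 and 3, blue diamonds for control replicate 2 and red points for the 3 arrays at 2000 Hz. Control replicate 2 is the control nearest the sound arrays in 12 of the 14 rises and 11 of the 14 falls.

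Taken as a set, 12 of the 14 rises and 11 of the 14 falls had control replicate 2 nearest to the sound arrays. In 11 of the 14 rises and 12 of the 14 falls, all 3 arrays at 3000 Hz also lay beyond all controls. The genes were picked for lying beyond these same controls, which makes such overlap likelier, and the share over all probe sets was not counted. The 3 arrays at 2000 Hz lay beyond all 9 arrays at 250, 500 and 1000 Hz in 3 of the rises and 2 of the falls. Of these 28 genes, 10, 27 and 5 still passed without control replicates 1, 2 and 3, and 4, 23 and 6 without sound replicates 1, 2 and 3. AT1G04770, AT3G07350, AT3G30460 and AT2G34300 passed whichever array was left out.

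The falls were smaller, from 0.97 to 1.31 on the log2 scale, and included genes of growth and hormone response. ARR15, a type-A response regulator that damps cytokinin signalling, read 8.17, 7.0 and 8.28 in silence and 6.59, 6.69 and 6.80 at 2000 Hz. It fell by 1.12 (SE 0.25, adjusted p = 0.0272), with control replicate 2 again nearest to the sound arrays. The second type-A regulator measured, RR16, read 9.24, 8.43 and 9.20 in silence and 8.39, 9.20 and 8.56 with sound, and its groups overlapped. AT2G14900, of the gibberellin-regulated family, read 10.19, 9.59 and 9.36 in silence and 7.81, 9.24 and 8.29 with sound, a change of -1.27 ± 0.28 (adjusted p = 0.0305).

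MSRB9, a methionine sulfoxide reductase that repairs oxidized protein, read 8.13, 7.96 and 8.55 in silence and 6.92, 7.05 and 7.01 at 2000 Hz (-1.22 ± 0.28, adjusted p = 0.0331). At 250, 500 and 1000 Hz it stayed at 7.80 to 8.95, with no overlap with 2000 Hz, and at 3000 Hz it read 7.89, 7.83 and 6.73. MSRB9 was lower at 2000 Hz than at the other 4 frequencies by -1.15 ± 0.22 (adjusted p = 0.0211). AT4G33040, a glutaredoxin gene that is in neither glutaredoxin list counted below, changed by -1.16 ± 0.30 (adjusted p = 0.0498), and AT4G21870, a small heat shock protein-like gene, by -0.99 ± 0.23 (adjusted p = 0.0349).

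AT3G05600, a predicted epoxide hydrolase gene, was lower at 2000 Hz than both in silence and at 3000 Hz. Its signals were 7.01, 6.35 and 6.53 in silence, 5.2, 5.42 and 5.69 at 2000 Hz and 6.75, 6.85 and 6.55 at 3000 Hz. The change against silence was -1.19 ± 0.30 (adjusted p = 0.0445), and the difference between the 2 frequencies was -1.28 ± 0.30 (adjusted p = 0.0326). Some arrays at 250, 500 and 1000 Hz were as low, since these ranged from 5.33 to 7.26. The other falls were AT2G38870, a protease inhibitor gene (-1.20), AT2G46140, a late embryogenesis abundant protein gene (-1.11), AT1G67360, a lipid droplet protein gene (-1.04), the RING-finger gene AT3G30460 (-1.0), the predicted methyltransferase gene AT2G34300 (-0.99), the Sec14-like gene AT1G55690 (-0.97), and AT4G16447 (-1.31) and AT1G48330 (-1.26), for which no role is given.

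The plastid genome stood out by the direction of its changes. Of 77 probe sets for plastid-encoded genes, 23 were higher at 2000 Hz than in silence and 0 lower (over all probe sets 1.62% were higher), and 74 had a positive change, against 46.3% of all probe sets. The median change was 0.31, beside -0.02 over all probe sets. In 51 of the 77, all 3 sound arrays lay above all 3 controls (7.5% over all probe sets). Part of this was shared with 3000 Hz: against the same controls 14 of the 77 were higher there and 2 lower. Over all 22746 probe sets 647 were higher and 855 lower at 3000 Hz. Of the 77 changes at 3000 Hz, 58 were positive with a median of 0.23. At 1000 Hz 59 were positive with a median of 0.11, and 0 passed. The mean over the 77 was 9.79, 10.0 and 9.81 on the controls and 10.26, 10.38 and 10.27 at 2000 Hz, with no overlap. It was 9.38 to 10.02 on the 9 arrays at 250, 500 and 1000 Hz, and 10.20, 9.92 and 10.22 at 3000 Hz. The arrays with the bright poly-A spikes were thus also those with the highest plastid means, apart from 3000 Hz replicate 2. Most plastid transcripts carry no long poly-A tail, and how the labelling bore on their signals was not tested.

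psbB, which encodes an inner antenna protein of photosystem II, had the largest change among the 77. It read 6.96, 7.65 and 7.39 in silence and 8.67, 8.55 and 8.55 at 2000 Hz, a rise of 1.26 ± 0.18 (2.39-fold, adjusted p = 0.00564). psbD, for the reaction centre protein D2, rose by 1.18 ± 0.19 (adjusted p = 0.00886), psbA, for D1, by 0.85 (adjusted p = 0.00879) and psbH by 0.61 (adjusted p = 0.0335). In all, 4 of 15 photosystem II probe sets rose, 14 of 15 changes were positive, and the median was 0.33. Their mean was 10.41, 10.60 and 10.54 in silence, 10.98, 10.98 and 11.01 at 2000 Hz, and 10.14 to 10.65 at 250, 500 and 1000 Hz.

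The other complexes moved the same way. For photosystem I, 2 of 5 probe sets rose (psaA, a core protein, by 1.06, and psaI by 0.63), and for the cytochrome b6f complex 2 of 6 (petG by 0.97 and petD by 0.65). For the ATP synthase 3 of 6 rose, atpI by 1.00, atpH by 0.99 and atpA by 0.83. Their means on the 3 arrays at 2000 Hz were 11.38, 11.39 and 11.38, against 10.71, 11.01 and 10.79 in silence. For the NDH complex, which feeds electrons into cyclic flow, 4 of 11 rose, with ndhK at 1.1 and ndhJ at 0.86. Of the genes for plastid gene expression, 3 of 20 probe sets for ribosomal proteins rose (rps12 with 2 probe sets, and rps14), as did 1 of 4 for the RNA polymerase (rpoC1, by 0.70). The remaining plastid genes gave 4 of 10, namely accD of fatty acid synthesis (0.83), ycf4 of photosystem I assembly (0.92), cemA (0.63) and ycf2 (0.30). No difference between the complexes was tested. rbcL, the large subunit of Rubisco, changed by 0.45 and did not pass (adjusted p = 0.282).

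The size of the change varied with the level of the probe set. Of 22 plastid probe sets with a control mean above 12 on the log2 scale, 0 passed and the median change was 0.13. Of 28 between 9 and 12, 10 passed with a median of 0.48, and of the 27 at 9 or less 13 passed with a median of 0.65. The 3 plastid genes with a negative change were all bright: psbM at 14.02, atpE at 14.13 and psaJ at 12.84. Of 9 nuclear photosynthesis genes, which are bright as well, 0 passed, 8 changes were positive, the median was 0.17, and 6 were wholly above the controls (7.5% over all probe sets). Their mean was 13.13, 13.18 and 13.15 in silence and 13.38, 13.25 and 13.32 with sound, without overlap. Of 4 chlorophyll synthesis genes 0 passed, all 4 changes were positive with a median of 0.24, and 2 were wholly above the controls, and PORB, a protochlorophyllide reductase, changed by 0.58 (adjusted p = 0.101). Among 23 probe sets of the mitochondrial genome, 21 had a positive change (46.3% over all probe sets) with a median of 0.14. Of the 23, nad1 passed with a rise of 0.29 (1.62% of all probe sets were higher). This was not particular to 2000 Hz. At 500 and at 1000 Hz 21 changes were positive as well, with 0 passing. At 3000 Hz all 23 were positive with a median of 0.25, and 7 passed.

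**Figure D4:**
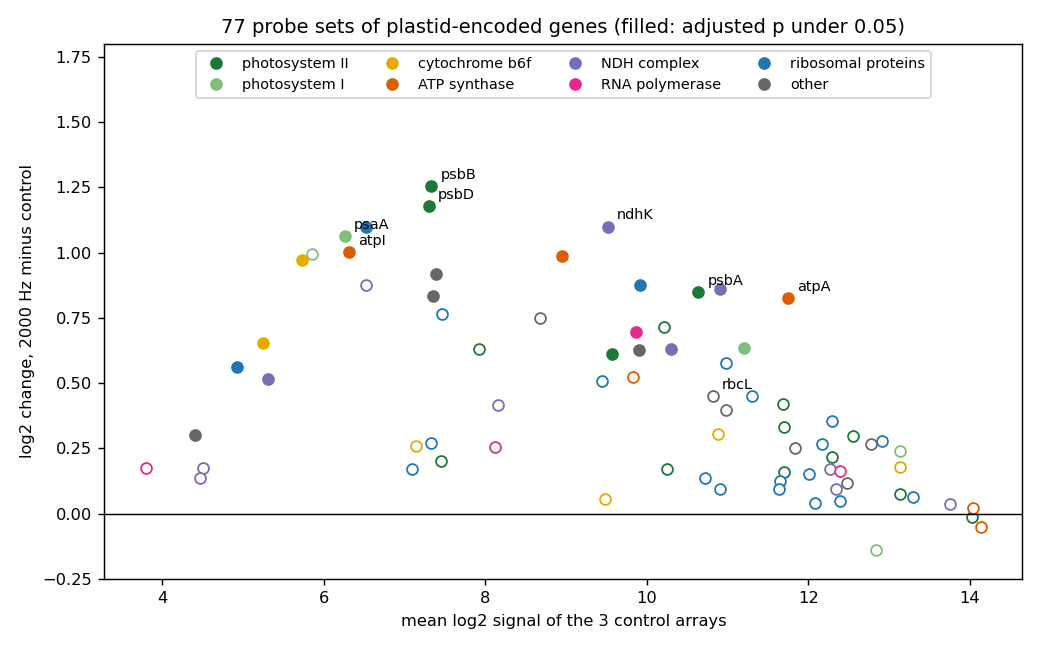
Log2 change at 2000 Hz against silence (vertical axis) and mean log2 signal of the 3 control arrays (horizontal axis) for 77 plastid-encoded probe sets, coloured by complex and filled where the adjusted p was under 0.05. Changes reach 1.26 for psbB at a control mean of 7.33, and none of the 22 probe sets above a control mean of 12 passed.

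Plastid signals at 2000 Hz were also set against the other frequencies. Against the mean of the 4 other frequencies, 24 of the 77 plastid probe sets were higher and 0 lower (1.33% of all probe sets were higher), among them psbB by 0.96 (adjusted p = 0.00826), ndhK by 1.03 and atpA by 0.87. Low plastid signals at 250 Hz enlarge this contrast: there the median change against silence was -0.33, and 2 of the 77 changes were positive. Without 2000 Hz replicate 1, 0 of all probe sets passed in this contrast. Against 3000 Hz alone, where the spike mean was 6.18 beside 6.34 at 2000 Hz, 67 of 77 differences were positive with a median of 0.17, and psbT and petL passed (0.827% of all probe sets were higher). psbT was higher by 1.1 (adjusted p = 0.0163) and petL, a small cytochrome b6f subunit, by 0.71 (adjusted p = 0.0166). Against silence, petL changed by 0.06 at 2000 Hz and by -0.65 at 3000 Hz, and psbT by 0.63 and -0.47. psbB was higher by 0.60 and did not pass (adjusted p = 0.0799). The count of 23 plastid rises against silence became 12, 31 and 6 without control replicates 1, 2 and 3, became 7, 14 and 7 without sound replicates 1, 2 and 3, and became 0 with the spike covariate, where psbB changed by 0.59 ± 0.55.

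Genes of the rapid stress response had mostly positive changes, with few passing. Of 11 measured out of 41 listed, 2 rose (1.62% over all probe sets) and the median change was 1.21, with 9 positive. AT5G52050, of the MATE family of efflux carriers, read 6.41, 6.08 and 5.74 in silence and 6.84, 7.70 and 8.36 with sound (1.56 ± 0.33, adjusted p = 0.0244). CML38 was the second. The zinc-finger gene STZ changed by 1.34 (adjusted p = 0.136) and WRKY22 by 1.03 (adjusted p = 0.202), and the ubiquitin ligase gene PUB24 changed by -0.22 without passing. The mean of the 11 was 6.5, 7.88 and 7.04 in silence and 8.07, 8.01 and 8.54 at 2000 Hz, and it was 8.03 to 9.30 at 250, 500 and 1000 Hz. Without control replicate 1 the median fell to 0.56.

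Touch genes and calmodulin-like genes overlapped with that list. Among 6 touch genes measured out of 14 listed, CML38 alone rose (1.62% of all probe sets were higher), and the median change was 0.74. At 250, 500, 1000 and 3000 Hz, 0, 2, 0 and 1 of the 6 rose against the same controls. The medians there were 1.035, 1.18, 0.305 and 0.755. EXO, which promotes cell expansion, changed by 2.54 (adjusted p = 0.0522) with its control values split between 8.75 and 12.72. Of 7 calmodulin-like genes, CML38 rose (1.62% over all probe sets), and the median was 0.06. CML41 read 5.63, 5.45 and 8.73 at 2000 Hz, so that its change of 0.86 came from replicate 3. The 7 genes of mechanosensitive channels and glutamate receptors had 0 passing and a median of -0.07. GLR3.3, a glutamate receptor-like channel of wound signalling, changed by 0.57 (adjusted p = 0.116).

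Of 4 sulfur-limitation genes measured out of 22 listed, AT1G04770 rose (1.62% of all probe sets were higher). APS3 and APS4, ATP sulfurylases of sulfate assimilation, changed by 0.39 (adjusted p = 0.379) and 0.31 (adjusted p = 0.462). BGLU28, a glucosidase gene known to rise in sulfur-starved plants, read 5.08, 5.44 and 5.10 in silence and 4.92, 4.85 and 8.45 with sound, high on replicate 3 alone. Glucosinolate synthesis had 0 of 3 passing, with BCAT4 at 0.56 and UGT74B1 at 0.14.

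In the DUF506 family 2 of 6 rose (1.62% over all probe sets), and the other 4, AT3G22970, AT2G38820, AT2G39650 and AT1G12030, changed by -0.35, 0.34, -0.03 and 0.72. This list and that of CC-type glutaredoxins were added after the data were seen. Their risers AT2G20670, AT3G07350 and AT3G62950 are among the 14 largest rises, so the counts are no test of either family. Of 16 CC-type glutaredoxin genes, 3 rose (AT3G62950, AT4G15700 by 1.21 and AT4G15690 by 0.97) and AT1G06830 fell by 0.75 (adjusted p = 0.0151). The glutaredoxin gene AT4G33040, which changed by -1.16 and passed, is not among the 16, so the count may leave out a fall. In 6 of the 16 the sound arrays lay wholly above the controls (7.5% over all probe sets), among them AT5G18600 at 0.88 (adjusted p = 0.0567). Of the 16 changes 11 were positive, and the median was 0.25. Rises in this list were not particular to 2000 Hz: against the same controls 4 members rose at 500 Hz, 4 at 3000 Hz and 0 at 250 and 1000 Hz. The medians at 500 and 3000 Hz were 0.38 and 0.08. AT1G06830 read 10.47, 10.08 and 10.35 in silence and 9.55, 9.37 and 9.73 with sound, and was also lower at 2000 Hz than at the other 4 frequencies by -0.51 ± 0.11 (adjusted p = 0.0267). The genes AT3G62930 and AT3G62960, numbered next to AT3G62950, changed by -0.04 and -0.14. Probe sets of such related genes may share target sequence, which was not examined here.

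**Figure D5:**
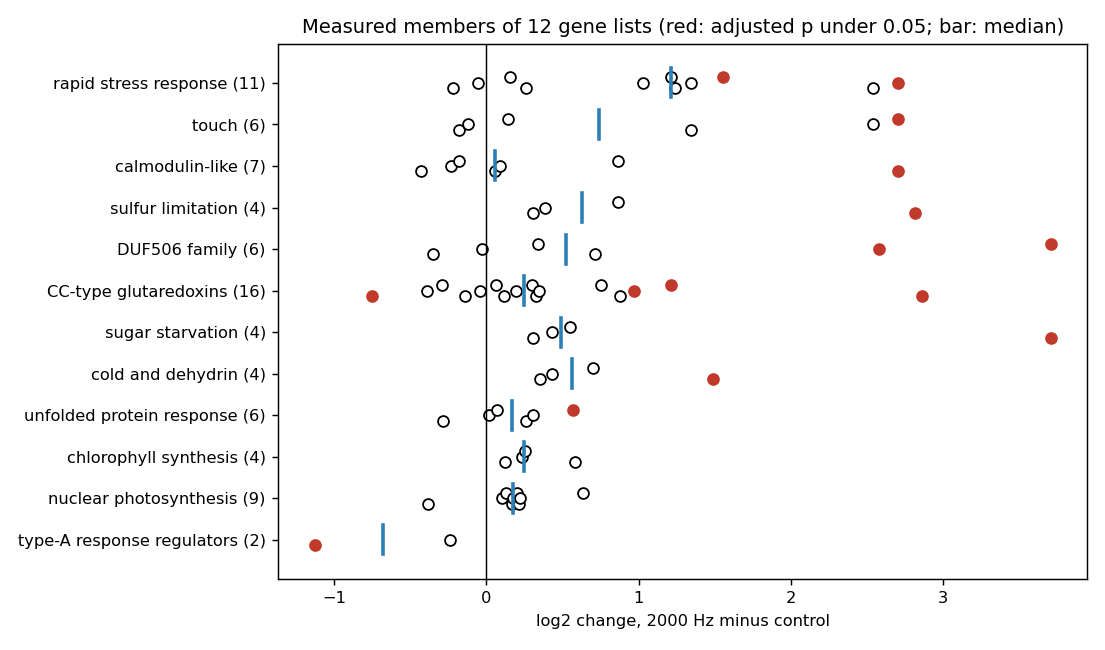
Log2 change at 2000 Hz against silence (horizontal axis) of each measured member of 12 gene lists (vertical axis, number of members in brackets), red where the adjusted p was under 0.05, with the list's median as a blue bar. Most lists hold 1 to 3 members that passed beside others that did not, and the rapid stress list has the highest median, 1.21.

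The sugar-starvation, cold and dehydrin, unfolded protein and early auxin lists each had 1 member that rose, beside 1.62% over all probe sets. Of the 4 sugar-starvation genes, AT2G20670 rose, and ATL8 and MCCA, which acts in leucine breakdown, changed by 0.31 and 0.55. LTI30, a dehydrin, rose by 1.49 ± 0.36 (adjusted p = 0.0394), while the cold genes COR15A, COR15B and COR47 changed by 0.35, 0.70 and 0.43 and did not pass. ATERDJ2B, a J-domain partner of chaperones of the endoplasmic reticulum, rose by 0.57 (adjusted p = 0.0212), beside 5 other genes of the unfolded protein response that did not pass. GH3.9, of a family that conjugates hormones to amino acids, rose among the 11 early auxin genes found by symbol (0.90, adjusted p = 0.0311), and its sound arrays read 6.27, 5.21 and 5.43 against 4.67 to 4.80 in silence. Without sound replicate 1 its change was 0.59. The changes of the 11 ran from -1.35 to 0.90 with a median of 0.03. Of the 11, 1 lay wholly below the controls and 1 wholly above (9.09% and 7.5% over all probe sets). This list leaves out the small auxin-up RNA gene AT3G53250, which has a locus name alone and rose by 0.88 at low signals. Few detoxification enzymes passed, beside 1.62% higher and 1.27% lower over all probe sets, and these counts show nothing about the families. CYP71B24 rose by 1.25 (1 of 23 cytochrome P450 genes), UGT88A1 rose by 0.87 and UGT84A4 fell by 0.77 (2 of 47 glycosyltransferase genes), and 0 of 13 glutathione transferases passed, with GSTU27 at 0.85 (adjusted p = 0.0638).

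Cell-wall loosening genes (XTH and expansin, 27 measured), SWEET sugar transporters (15), autophagy genes (10) and WRKY factors (6) had 0 members passing, with medians of 0.05, 0.05, -0.04 and 0.03. The clock gene GI changed by 1.13 (adjusted p = 0.253). DFR, an enzyme of anthocyanin synthesis, read 8.56, 7.69 and 5.95 in silence and 6.89, 5.23 and 7.05 with sound, and its groups overlapped. Lists with a single measured gene gave values of 0.28 for OPCL1 (jasmonate synthesis), 0.09 for HSA32 (heat shock), 0.41 for NAC014 and 0.26 for SAG101 (senescence), and 0 of these passed. The list of other glutaredoxins, which matched 2 genes by symbol and leaves out AT4G33040, had 0 passing, with GRXC2 at 0.06. Of 4 root markers 0 passed. PYK10, a root glucosidase, read 8.67, 5.38 and 5.82 in silence and 4.14, 5.41 and 4.94 at 2000 Hz, and the other 3 lay between 4.41 and 5.46 on all 6 arrays.

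Cytosolic ribosomal protein genes were lower at 2000 Hz than at 3000 Hz. Against silence 0 of 96 rose and 1 fell, AT3G04230 by 0.35 (1.27% of all probe sets were lower), with a median of -0.15. Against 3000 Hz, 64 of 96 were lower at 2000 Hz and 0 higher (2.34% of all probe sets were lower), 95 of 96 differences were negative, and the median was -0.58. The mean over the 96 was 10.76, 10.29 and 10.20 in silence, 10.21, 10.47 and 10.13 at 2000 Hz and 10.83, 10.86 and 10.80 at 3000 Hz. It was 10.15 to 10.52 at 250, 500 and 1000 Hz, alongside 2000 Hz. The count of 64 became 0 without 2000 Hz replicate 1 or 3000 Hz replicate 3, where 0 probe sets passed in all. Control replicate 1 thus lay near the arrays at 3000 Hz and the other controls near those at 2000 Hz.

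Leaving out each of the 6 arrays in turn left 36 probe sets that passed every time, 28 higher and 8 lower, of which 23 had a single gene. They were picked after their values were seen. Among them AT2G47440, a tetratricopeptide repeat protein gene, read 9.18, 9.48 and 8.84 in silence and 10.58, 10.70 and 10.28 at 2000 Hz, a rise of 1.35 ± 0.17 (adjusted p = 0.00272). It lay at 9.23 to 9.97 at 250, 500 and 1000 Hz and was higher than at 3000 Hz by 0.67 ± 0.17 (adjusted p = 0.0401). AT3G26490, of the NPH3 family of adaptors known from blue-light signalling, read 5.23, 5.4 and 5.14 in silence and 6.07, 5.97 and 6.03 with sound, and was above 3000 Hz by 0.52 (adjusted p = 0.0185). The small auxin-up RNA gene AT3G53250 read 3.54, 3.49 and 3.50 in silence and 4.26, 4.74 and 4.18 with sound. Its signals here lay far below the array medians of 6.51 to 6.63. AT3G53250 and AT5G10750 behaved alike, with 0.60 and 0.47 above 3000 Hz. The differences of these genes from 3000 Hz did not pass every time. In that contrast 0 probe sets passed without 2000 Hz replicate 1 or 3000 Hz replicate 3.

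Further rises against silence that held whichever of the 6 arrays was left out were AT1G26920 (1.48), AT1G49840 (1.26), AT1G12990 of a glycosyltransferase family (1.19), the kinase gene AT1G54820 (1.1), the F-box gene SKP2A (1.07), AT2G39870 (0.82) and the plastid genes psbB, psbD, psbA, psaA and ndhK. AT2G07708 (0.91) did so too, but its probe set is of a type that can match several transcripts. The falls were AT2G32070 of the CAF1 family of mRNA deadenylases (-0.73), AT3G30460, AT2G34300, and the pentatricopeptide repeat genes AT2G06000 (-0.81) and AT1G11630 (-0.67). AT2G32070 read 9.56, 9.37 and 9.65 in silence and 8.73, 8.92 and 8.73 with sound, with 9.14 to 9.43 at 250, 500 and 1000 Hz and 8.98 to 9.06 at 3000 Hz.

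Differences between 2000 and 3000 Hz do not involve the control arrays. With the spike mean as a covariate 0 probe sets passed in this contrast (2529 unadjusted). Without it 188 probe sets were higher and 532 lower at 2000 Hz (0.827% and 2.34%). The count of 720 rested on single arrays: leaving out the first array at 2000 Hz or the third at 3000 Hz gave 0, leaving out the third at 2000 Hz gave 13, and leaving out the first or second at 3000 Hz gave 42 and 23. TBL36, of a family of wall polysaccharide acetyltransferases, read 7.83, 7.43 and 7.38 at 2000 Hz and 6.65, 6.74 and 6.79 at 3000 Hz (0.82 higher, adjusted p = 0.00957). PGRL1B, which serves cyclic electron flow around photosystem I, was 0.70 higher (adjusted p = 0.0143). In both, the controls (7.23 to 7.29 and 9.15 to 9.42) lay nearer to 2000 Hz than to 3000 Hz.

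AT2G14910, AT1G69580 and AT1G07485 were also higher at 2000 than at 3000 Hz, by 0.57, 0.67 and 0.39. Lower were AT3G06530, a repeat-protein gene (-1.43), AT3G52170 (-1.18), AT2G27775 (-0.98), RH39, an RNA helicase of chloroplast ribosomal RNA maturation (-0.69), and the pentatricopeptide repeat gene AT1G15480 (-0.58). Against silence none of the 10 genes with the smallest p in this contrast passed at 2000 Hz, and their changes lay between -0.32 and 0.28.

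Against the mean of the other 4 frequencies, 303 probe sets were higher and 235 lower at 2000 Hz (1.33% and 1.03%). The count of 538 became 0, 419 and 53 without sound replicates 1, 2 and 3. Besides ndhK and atpA, the genes with the smallest p were AT5G44530 and AT4G21650, both of the subtilase family of proteases, and AT2G29320, a short-chain dehydrogenase gene. AT5G44530 read 6.78, 6.36 and 6.16 in silence, 8.02, 7.19 and 7.89 at 2000 Hz and 6.08 to 6.75 at 250, 500 and 1000 Hz. It rose by 1.27 ± 0.21 against silence (adjusted p = 0.00955) and was 1.14 above the other frequencies (adjusted p = 0.00808). AT4G21650 read 6.61, 6.31 and 5.77 at 2000 Hz and 4.80 to 5.64 at all other frequencies, with 0.89 above silence, 1.08 above the other 4 (adjusted p = 0.00808) and 1.17 above 3000 Hz.

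AT4G29030 had the widest gap among the lower genes. It read 6.52, 6.78 and 6.65 at 2000 Hz, 10.41, 10.23 and 10.20 at 3000 Hz, 9.83, 7.70 and 9.10 in silence and 6.61 to 10.96 at 250, 500 and 1000 Hz. The difference was -2.97 ± 0.52 against the other frequencies (adjusted p = 0.0138) and -2.23 against silence (adjusted p = 0.0746). AT1G66260, of the ALY family of mRNA export adaptors, was lower than at the other frequencies by -0.64 (adjusted p = 0.00872), and AT4G30490, AT1G16000 and AT5G60150 by -0.88, -0.50 and -0.34. Of these AT1G16000 was also lower than in silence, with 8.94, 8.84 and 8.83 in silence and 8.45, 8.54 and 8.17 at 2000 Hz (-0.48 ± 0.11, adjusted p = 0.027).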

How the data were processed

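Labelled cRNA from total RNA was hybridized to ATH1 arrays. The authors deposited a log2 signal for each probe set and array. The software named, per the submitters' processing notes, is Affymetrix Expression Console 1.1 with RMA and MAS5, and the role of each is not given in the sources used here, so how background and normalization entered the signals is unknown. Array medians lay between 6.51 and 6.63 (log2), and no further scaling was applied. Of 22810 probe sets, 64 AFFX controls were set aside and 22746 tested; 13521 had 1 gene, 495 several and 8730 none named here, and 13436 matched the RefSeq TAIR10.1 gene table, which supplied loci.

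All 18 arrays in 6 groups were fitted in R 4.3.3 by limma 3.58.1, using lmFit and a trended eBayes. Two-sided p-values were adjusted by Benjamini-Hochberg over the 22746, and a feature changed where the result was under 0.05. Each ± gives the fit's SE unless marked SD, n is 3 arrays per group, and the number of arrays limits the precision. On simulated data with 50 probe sets changed per size at 2000 Hz against control, the fit on 22746 probe sets recovered 52% of changes of 0.5, 92% of 1, 96% of 1.5 and 98% of 2 (log2), and called 10 unchanged ones. The simulated noise was independent, with the same spread in every group. On the real arrays the mean variance was 0.103 for the controls and 0.042 at 2000 Hz, so these rates need not hold for them.

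The members, the naming rule and the 48 gene lists were chosen with earlier results of these data known. Of the lists, 41 had a measured member and 3 (DUF506, CC-type glutaredoxins and plastid transcription factors) were added after seeing the data, when the cytosolic ribosomal and nuclear photosynthesis lists were also filled in by locus. Many lists were measured only in part, such as 4 of 24 sugar-starvation genes, 9 of 44 nuclear photosynthesis genes, 2 of 10 type-A regulators and 6 of 13 DUF506 genes. Their counts therefore do not describe whole families. The naming rule took AT1G04770, AT3G07350 and psbB; the 14 largest rises and 14 largest falls that passed, had 1 gene and did not overlap; up to 6 passing members of each list, or else the one with the smallest p; and 5 genes each way for the other contrasts. Other members named are examples chosen after their values were seen. Promoter motifs in the rule were not searched, since no promoter sequences were used here. Alternatives were other scalings, a filter on dim probe sets, no intensity trend, array weights, a replicate block, the spike mean as a covariate, the 6 arrays alone, and leaving out each array.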

Additional observations from a re-analysis of the deposited data

Results flagged for a closer look

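Control probe sets outside the main measurement differed between the groups. The poly-A spikes were brighter by 0.89 (log2) at 2000 Hz than in silence, and among the hybridization controls, which are added after labelling, bioC was brighter by 0.42 and bioD by 0.31. The signal of cre differed by 0.04 and that of bioB by 0.11. The actin 3′ minus 5′ signal, a measure of RNA quality, was 1.94 ± 0.017 (SD, n = 3) in silence and 1.75 ± 0.086 at 2000 Hz. The part of these signals in the changes was not tested.

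Changes against the shared controls differed between 2000 and 3000 Hz at 720 probe sets, tested as the direct contrast. Among genes named in the text, psbT (1.1), petL (0.71), AT4G21650 (1.17), TBL36 (0.82), PGRL1B (0.70), AT2G47440 (0.67), AT1G69580 (0.67), AT3G53250 (0.60), AT2G14910 (0.57), AT3G26490 (0.52), AT5G10750 (0.47) and AT1G07485 (0.39) were higher at 2000 Hz. Lower were AT4G29030 (-3.63), AT3G06530 (-1.43), AT3G05600 (-1.28), AT3G52170 (-1.18), AT2G27775 (-0.98), RH39 (-0.69), AT1G15480 (-0.58), AT1G16000 (-0.50), AT3G04230 (-0.46) and AT5G60150 (-0.34).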

How the results depend on the processing

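For 2000 Hz against silence, centring, quantile normalization, leaving out dim probe sets, no intensity trend and array weights gave 650 to 915 probe sets, against 657 as reported. The replicate numbers did not pair the arrays (deviations of same-numbered arrays correlated at -0.002, -0.15 and 0.28), and with the replicate block 560 passed. The spike covariate, the 6 arrays alone, and an unmoderated test on them gave 0 each (605, 2586 and 2128 unadjusted); the plastid count of 23 was 0 in each. Leaving out 1 array gave 48 to 2576 in all and 6 to 31 plastid rises. Probe sets beyond all controls, whose alternatives were chosen after seeing the data, numbered 3772, and 3598 after centring, 4011 after quantile normalization and 3090 without dim probe sets; with 1 array fewer, where non-overlap is easier by construction, 4813 to 8157.

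Against 3000 Hz, array weights gave 2284, the covariate 0 (2529 unadjusted), and leaving out 1 array 0 to 910. Against the other 4 frequencies, array weights gave 2720, the covariate 0 (615 unadjusted), and leaving out 1 array 0 to 419.

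With the covariate 7 genes changed sign: AT3G62550 (-0.61), AT2G14900 (0.19), AT2G38870 (0.11), GH3.9 (-0.55), petG (-0.13), cemA (-0.027) and AT1G26920 (-0.20). The spike mean separates the arrays at 2000 and 3000 Hz from all controls, so this fit leaves little to estimate the sound: the change of AT1G04770 was 3.33 ± 0.90 and that of AT3G07350 2.44 ± 1.30. The cause of the other shifts was not tested.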
